A study of Rattus norvegicus with 22 samples.

Results

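The 10 genes described here encode core parts of the circadian clock: Per1, Per2, Per3, Arntl (now also called Bmal1), Clock, Cry1, Nr1d1, Nr1d2, Dbp and Tef. They were chosen by name, and each was read from the brightest of its probes on the array. They are 10 of the 22436 gene symbols carried by 30367 probes. All 10 had a value on every array.

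Tissue came from male F344 rats, about 33 weeks old, whose drinking water held the carcinogen 4-nitroquinoline-1-oxide (4-NQO) at 20 ppm over 10 weeks. Each of 11 rats gave an oral squamous cell carcinoma (OSCC) of the tongue and a piece of phenotypically normal tongue beside it, so the normal pieces were exposed to 4-NQO as well and no unexposed tongue is compared. The sample titles call all 22 pieces untreated and the normal pieces are marked as without treatment, although the protocol in the same labels doses the rats with 4-NQO. Rats were kept with 12 hours of light each day, and the clock time of necropsy is not given in the sources used here. RNA from each piece was hybridised to a 1-color Agilent array, and every level below is log2 of the processed signal minus the 75th percentile of its own array, so that 0 is the 75th percentile.

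The clock is a transcriptional loop. Arntl and Clock form a heterodimer that binds E-boxes and drives the Per and Cry genes, whose proteins then repress the heterodimer. The same heterodimer drives Nr1d1 and Nr1d2, nuclear receptors that repress Arntl, and Dbp and Tef, which bind D-boxes in further output genes. In a tissue with a running clock, Arntl therefore peaks when Dbp and the Per genes are low.

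Because clock proteins bind such regulatory letters, the stretches before the transcription starts of the members were searched on both strands. The letters were the E-box CACGTG, the related E'-box CACGTT, the D-box TTANGTAA and the RORE half-site AGGTCA bound by Nr1d1 and Nr1d2. RefSeq promoters of build GRCr8 were matched for 9 of the 10 members, and the 250 bases before the start were read. Ciart, a repressor of the heterodimer that is described further on, is shown with Arntl, Per2 and Tef because these promoters hold 1 or more of the letters and their genes moved in opposite directions. Capitals mark the matches.
Arntl, chr1:176766078-176766327, + strand: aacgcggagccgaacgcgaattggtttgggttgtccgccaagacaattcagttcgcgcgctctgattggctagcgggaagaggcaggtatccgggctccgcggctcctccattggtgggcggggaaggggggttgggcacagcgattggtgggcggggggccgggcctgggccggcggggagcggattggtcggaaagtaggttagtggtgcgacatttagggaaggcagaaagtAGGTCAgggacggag
Per2, chr9:99496994-99497243, - strand: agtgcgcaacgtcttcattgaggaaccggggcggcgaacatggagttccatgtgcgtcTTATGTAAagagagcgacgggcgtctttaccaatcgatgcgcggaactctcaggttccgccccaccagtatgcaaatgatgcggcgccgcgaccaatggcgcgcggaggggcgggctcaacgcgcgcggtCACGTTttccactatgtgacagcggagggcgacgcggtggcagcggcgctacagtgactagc
Tef, chr7:115206577-115206826, + strand: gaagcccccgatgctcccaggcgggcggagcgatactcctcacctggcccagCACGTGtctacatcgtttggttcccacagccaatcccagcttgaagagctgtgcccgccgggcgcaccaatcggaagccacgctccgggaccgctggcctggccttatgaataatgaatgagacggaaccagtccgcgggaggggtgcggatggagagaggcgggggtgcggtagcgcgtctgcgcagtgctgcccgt
Ciart, chr2:186112247-186112496, - strand: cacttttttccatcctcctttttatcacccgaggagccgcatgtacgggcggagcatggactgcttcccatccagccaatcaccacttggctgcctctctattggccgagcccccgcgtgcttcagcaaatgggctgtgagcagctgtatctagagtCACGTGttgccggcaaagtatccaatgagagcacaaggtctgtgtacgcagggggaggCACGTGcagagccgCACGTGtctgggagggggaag

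Ciart held 3 E-boxes, Tef held 1, Per2 held an E'-box and a D-box, and Arntl held a RORE half-site. Of all 33469 promoter windows of this length in the table, 5.59% held an E-box, 4.07% an E'-box, 2.04% a D-box and 14.1% a half-site. Nr1d1 held an E'-box before 1 of its starts and an E-box before the other, and Nr1d2 held a half-site. Per1, Per3, Clock and Dbp held none of these letters in the window, which says nothing of sites elsewhere.

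Between 48.4% and 56.1% of probes were well above background on the normal arrays, and between 52.3% and 65.5% on the OSCC arrays. The OSCC arrays of rats 4 and 9 shared a scan day with all normal arrays, the remaining 9 OSCC arrays had a different scan day, and no slide held both tissues. The normal pieces were rich in skeletal muscle RNA. The summed level of 16 muscle genes, on a linear scale where 1 is the 75th percentile, ran from 1933 to 3872 in normal pieces (median 2970) and from 108 to 4139 in OSCC (median 655). It was lower in OSCC in 8 of 11 rats, the exceptions being rats 21, 22 and 24, and 11 of the 16 genes were called lower and 1 higher. In RNA from whole pieces, fewer cells of a type and less RNA per cell cannot be told apart.

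Of the 10 clock genes, Per1, Nr1d1, Dbp and Tef were lower in OSCC and Arntl was higher. A gene was called at an adjusted p below 0.05 in a limma fit with terms for animal and tissue, and a mean change of at least 2-fold. Over all probes 13.8% were called, 6.97% lower and 6.86% higher, against 4 lower and 1 higher of the 10 members. At any fold, 8 of the 10 members passed the adjusted p, where 44% of all probes did. The median change of the members was -0.87, and that of all probes was -0.24.

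**Figure D1:**
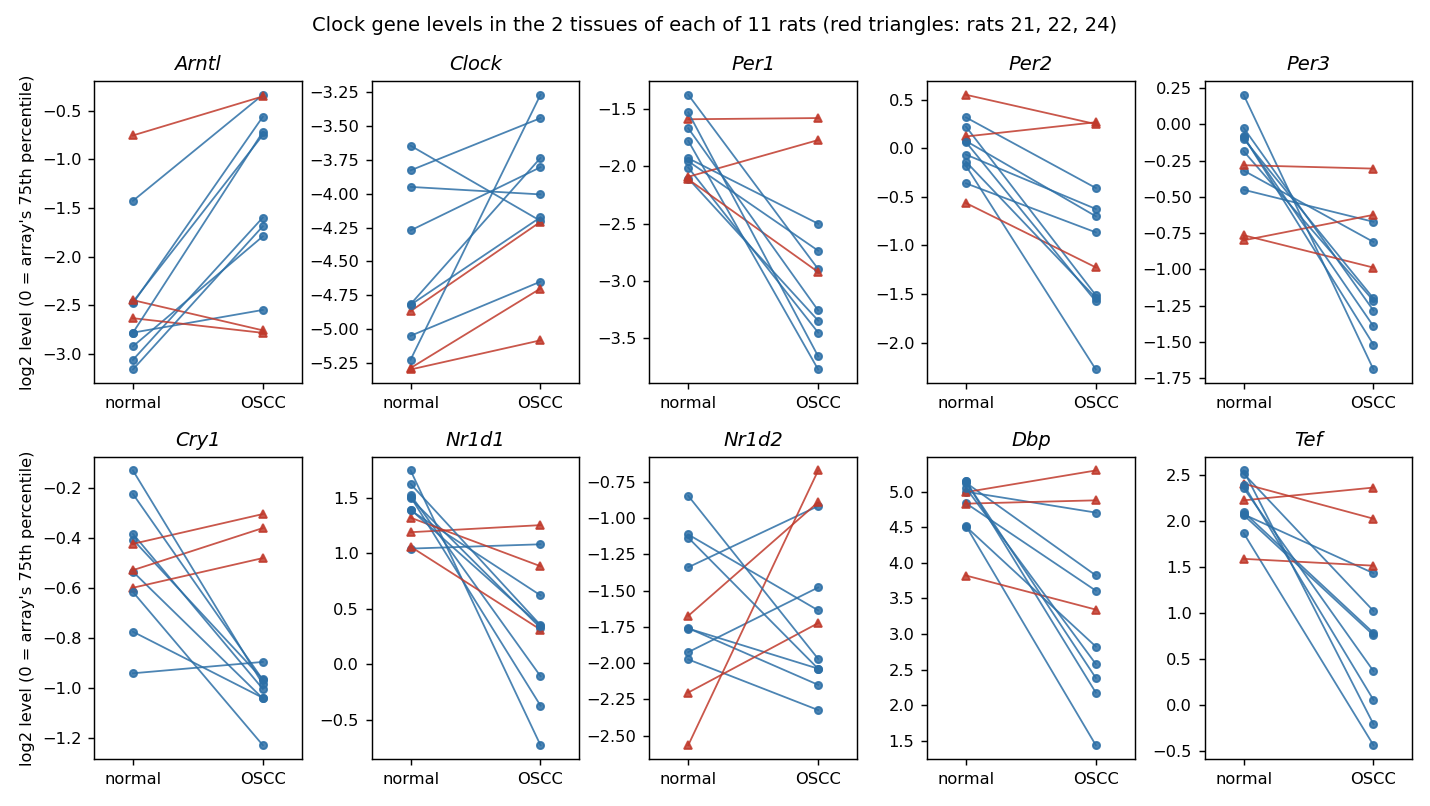
Level of each clock gene (log2, 0 is the 75th percentile of the array) in normal tissue and OSCC of the same rat, with 1 line for each of 11 rats. Lines for Per1, Per2, Per3, Nr1d1, Dbp and Tef mostly fall and those for Arntl mostly rise, and the red triangles (rats 21, 22 and 24) change by -0.48 to 0.30 for Dbp and by -0.31 to 0.40 for Arntl. The y axes differ between panels.

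Arntl, the activator, spanned -3.16 to -0.76 in normal pieces (median -2.63) and -2.78 to -0.34 in OSCC (median -1.60). It was higher in OSCC in 9 of 11 rats, and 5 OSCC arrays lay above every normal array. Its mean rose by 1.00 ± 0.24 (SE, n = 11 pairs; adjusted p = 0.0064), which stood on the 2-fold line: without rat 4, 9, 11, 13, 16, 25 or 26 the change was between 0.90 and 0.99 and was no longer called. The largest rise was 2.06, in rat 25, and the lowest change was -0.31, in rat 24. Over the 2 pairs scanned within 1 day the change was 1.59. A second, dimmer Arntl probe was higher by 1.29 ± 0.43 (adjusted p = 0.031).

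Clock, the partner of Arntl, was dim. It was well above background on 1 of 11 normal arrays and 7 of 11 OSCC arrays, and its levels ran from -5.30 to -3.65 in normal tissue and from -5.08 to -3.27 in OSCC. The mean difference was 0.53 ± 0.19 (adjusted p = 0.039), under 2-fold, and it changed sign with another background correction, to -0.11. The second Clock probe was dimmer still, detected above background on 2 OSCC arrays and 0 normal ones. It was higher by 0.95 ± 0.17 (adjusted p = 0.0014), in 10 of 11 rats and with 8 OSCC arrays above every normal array, and the mean of both probes was higher by 0.74 ± 0.16 (adjusted p = 0.0034). Both probes thus had higher means in OSCC, under 2-fold and mostly near background.

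The Per genes encode repressors of the heterodimer, and all 3 had lower means in OSCC. Per1 spanned -2.11 to -1.38 in normal pieces (median -1.93) and -3.77 to -1.58 in OSCC (median -2.92), and 9 OSCC arrays lay below every normal array. Per1 fell by 1.07 ± 0.22 (adjusted p = 0.0034), in 9 of 11 rats. Its change was -0.97 without rat 13 and -0.96 without rat 26, both under the 2-fold line. With normexp background correction it was -0.57 and failed the test as well (adjusted p = 0.26). Per2 spanned -0.56 to 0.55 in normal pieces (median 0.07) and -2.28 to 0.27 in OSCC (median -0.86), with a mean difference of -0.93 ± 0.20 (adjusted p = 0.0039) and lower values in 10 of 11 rats. Per2 thus passed the test but not the 2-fold line, which it crossed without rat 24, at -1.04. Per3 ran from -0.80 to 0.20 and from -1.69 to -0.31, with a mean difference of -0.80 ± 0.20 (adjusted p = 0.0080). Of the other Per3 probes, 1 gave -0.79 and the other -1.27, so the 3 probes shared the direction but not the call.

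Cry1, which represses together with the Per proteins, moved less. It ran from -0.94 to -0.13 in normal tissue and from -1.23 to -0.30 in OSCC, with a mean difference of -0.34 ± 0.13 that missed the threshold (adjusted p = 0.051). Cry1 was lower in 7 of 11 rats, by up to 0.85, and in the other 4 (rats 13, 21, 22 and 24) it differed by 0.05 to 0.17 the other way.

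The 2 receptors that repress Arntl differed from each other. Nr1d1 spanned 1.04 to 1.75 in normal pieces (median 1.40) and -0.73 to 1.25 in OSCC (median 0.35), with 9 OSCC arrays below every normal array. Nr1d1 fell by 1.03 ± 0.22 (adjusted p = 0.0041), and the call was lost without rat 4, 11 or 13, at -0.94, -0.97 and -0.89. Nr1d2 spanned -2.57 to -0.85 in normal pieces (median -1.76) and -2.32 to -0.67 in OSCC (median -1.72), with a mean difference of 0.04 ± 0.25 (adjusted p = 0.90). The pair differences of Nr1d2 spread from -1.13 in rat 26 to 1.90 in rat 24, so a mean near 0 covered opposite changes in single rats.

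Dbp and Tef, the D-box activators, had the largest mean decreases of the 10 genes. Dbp spanned 3.82 to 5.15 in normal pieces (median 4.995) and 1.44 to 5.30 in OSCC (median 3.34), and fell by 1.45 ± 0.34 (adjusted p = 0.0065). It was lower in 9 of 11 rats, with differences of -3.09 in rat 13 and -2.97 in rat 11, and of 0.05 and 0.30 in rats 22 and 24. Its other probes gave -1.54 and -1.47. Tef spanned 1.59 to 2.55 in normal pieces (median 2.23) and -0.44 to 2.37 in OSCC (median 0.78), and fell by 1.32 ± 0.27 (adjusted p = 0.0033), in 10 of 11 rats.

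**Figure D2:**
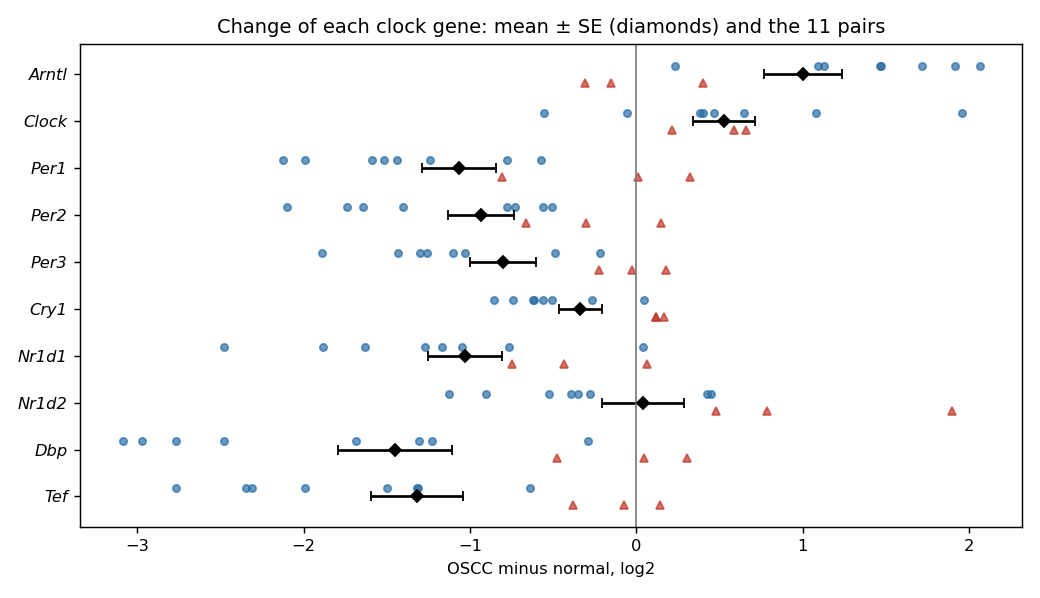
OSCC minus normal (log2) for each clock gene, with black diamonds for the limma mean, bars for its SE, and points for the 11 pairs (red triangles are rats 21, 22 and 24). Dbp at -1.45 and Tef at -1.32 lie farthest left, Arntl at 1.00 farthest right, and Nr1d2 at 0.04 has pairs on both sides of 0.

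The pairs scanned on different days (9) and within 1 day (2) gave the same directions for the 5 called genes. Dbp was at -1.44 over the 9 pairs and -1.50 over the 2, Tef at -1.30 and -1.41, Per1 at -1.01 and -1.34, Nr1d1 at -0.96 and -1.32, and Arntl at 0.87 and 1.59. With scan day as a term 0 members were called, and that fit takes the tissue difference from the 2 pairs.

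The tissues overlapped for all 10 members, as for most probes: 1.65% of all probes had no overlap. At its brightest probe none of the members was lower in OSCC in all 11 rats, and 5.25% of all probes were. With 10 genes, neither count sets the members apart from all probes. Of the members' other probes, both of Dbp and 1 of Per3 were lower in 11 of 11 rats. The spread among rats was wider in OSCC for 9 of the 10 genes. The SD of Dbp was 0.40 in normal tissue and 1.23 in OSCC, 3.07 times as wide, and that of Tef was 3.08 times as wide. Over all probes the median ratio was 1.64, and 83.2% of probes had the larger SD in OSCC.

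Other clock transcription factors, from a list of 13, moved both ways, with Arntl2 and Nfil3 called higher and Ciart called lower. Arntl2, a paralog of Arntl, ran from -6.14 to -3.84 in normal tissue and from -4.64 to -0.92 in OSCC, but was well above background on 1 normal array and 9 OSCC arrays, so the measured rise of 2.82 ± 0.46 (adjusted p = 0.0009) starts from a dim level. Nfil3, which represses through the D-boxes that Dbp and Tef activate, ran from -2.21 to -1.38 and from -1.99 to 0.59, and rose by 1.44 ± 0.25 (adjusted p = 0.0011). Ciart, the repressor with 3 E-boxes shown above, ran from -2.74 to -1.04 and from -4.44 to -1.32, and fell by 1.42 ± 0.28 (adjusted p = 0.0022), in 11 of 11 rats. The median change of this list was -0.21.

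The clock's kinases and ubiquitin ligases did not reach the call: 0 of 6 measured genes, of which 1, Csnk1e, passed the adjusted p alone (0.42 ± 0.16, adjusted p = 0.045). Of 6 output genes, 0 were called, and Wee1 and Cdkn1a passed the adjusted p at -0.66 and -0.75, although a second Cdkn1a probe gave 0.48. Of 6 glucocorticoid-responsive genes, a list added because these hormones also drive Per1, 1 was called lower, the dim Zbtb16, while Tsc22d3 and Klf9 gave -0.94 and -0.89 and Cebpd gave 0.85, each past the adjusted p but under 2-fold. These lists therefore had medians of -0.07, -0.11 and -0.43.

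Whether activator and repressors kept their mutual relation was examined by correlating Arntl with the other 9 genes over rats, in normal arrays, OSCC arrays and pair differences, 27 relations in all, with a two-sided permutation test and Benjamini-Hochberg adjustment over the 27. In normal tissue, 2 of 9 passed, both negative. Arntl and Dbp had r = -0.87 (n = 11, permutation p = 0.0035, adjusted p = 0.019; rho = -0.62, permutation p = 0.048), and Arntl and Tef had r = -0.79 (n = 11, permutation p = 0.0048, adjusted p = 0.022; rho = -0.47, permutation p = 0.15). Both weakened without rats 21 and 13, the 2 rats farthest from the median of Arntl. Without them r was -0.37 (n = 9, exact permutation p = 0.35) for Dbp and -0.12 (n = 9, exact permutation p = 0.75) for Tef. Without rats 21, 22 and 24, but with rat 13 kept, r was -0.68 (n = 8, exact permutation p = 0.055) for Dbp. For Tef it was then -0.58 (n = 8, exact permutation p = 0.11). The normal piece of rat 21 had the highest Arntl, -0.76, and the lowest Dbp, 3.82, and Tef, 1.59. The repressors had weaker r: Cry1 -0.55, Nr1d2 -0.53, Per2 -0.50, Per1 -0.26, Per3 -0.20 and Nr1d1 -0.12 (n = 11, permutation p from 0.077 to 0.73). Clock had 0.38 (n = 7, exact permutation p = 0.52). Over the 8 rats other than 21, 22 and 24, Cry1 had -0.84 (exact permutation p = 0.0040) and Per3 0.78 (exact permutation p = 0.026), unadjusted. There Nr1d1, Clock, Per1, Per2 and Nr1d2 had 0.58, 0.50, 0.09, -0.12 and -0.48 (exact permutation p from 0.16 to 0.85).

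In OSCC the Arntl levels fell into 2 separate sets of rats, 5 between -0.75 and -0.34 (rats 4, 11, 13, 21 and 25) and 6 between -2.78 and -1.60. The adjusted tests therefore used only the set of 6. There Arntl ran against Per1 at r = -0.92 (n = 6, exact permutation p = 0.0083, adjusted p = 0.032; rho = -0.94, exact permutation p = 0.017). The other repressors and outputs also had negative r, from -0.69 for Per3 to -0.92 for Nr1d2, and Clock had 0.92, but none of these passed the adjustment (lowest adjusted p = 0.056, n = 6, exact permutation). Without the 2 rats farthest from the Arntl median, 4 rats remained and r for Per1 was -0.78 (exact permutation p = 0.17), and over the 5 of the 6 rats scanned on different days it was -0.91 (exact permutation p = 0.017). Which genes ran against Arntl depends on the rats kept. Over the 8 rats other than 21, 22 and 24, which include rats of both Arntl sets, r for Per1 was -0.57 (exact permutation p = 0.14). There Dbp, Nr1d2, Nr1d1, Tef and Per3 had -0.90, -0.88, -0.87, -0.84 and -0.81 (exact permutation p from 0.0024 to 0.012, unadjusted). Per2, Cry1 and Clock had -0.69, -0.25 and 0.40 (exact permutation p = 0.055, 0.58 and 0.32). Whether the relation differs between the tissues was not tested.

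**Figure D3:**
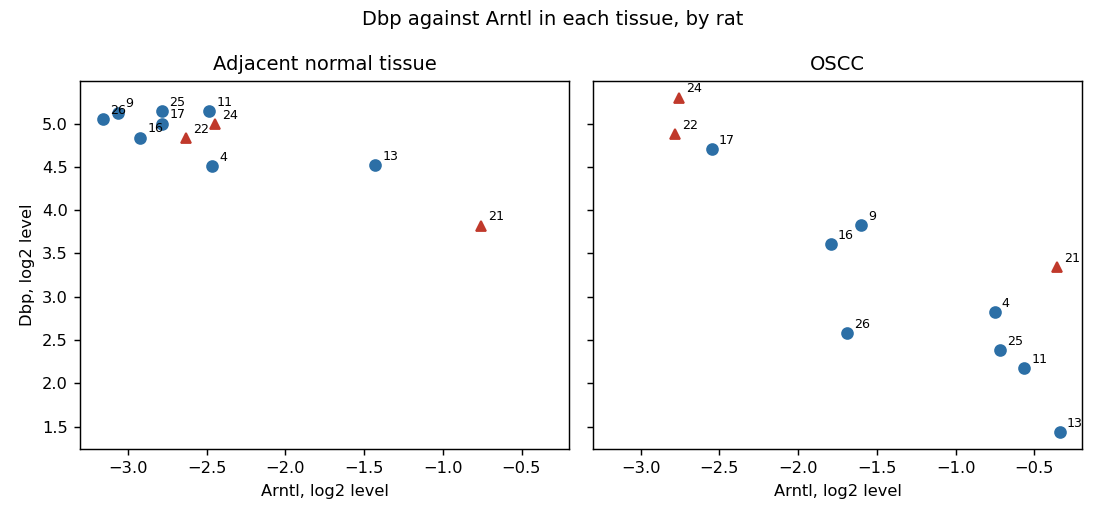
Dbp against Arntl (log2 levels) in normal tissue and in OSCC, 1 point per rat with its number, and red triangles for rats 21, 22 and 24. In normal tissue 9 of 11 rats lie close together, with rats 13 and 21 at higher Arntl, and in OSCC the points spread from Dbp 5.30 to 1.44.

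Over pair differences, 5 of 9 relations passed, all negative. The more Arntl rose in a rat's OSCC, the lower were the changes of these 5 genes. Tef had r = -0.88 (n = 11, permutation p = 0.00065, adjusted p = 0.010; rho = -0.85, permutation p = 0.0017). Dbp had r = -0.87 (rho = -0.79, permutation p = 0.0056) and Per1 r = -0.84 (rho = -0.76, permutation p = 0.0085), both with an adjusted p of 0.010 for r. Nr1d2, whose mean did not differ between tissues, had r = -0.83 (n = 11, permutation p = 0.0011, adjusted p = 0.010; rho = -0.80, permutation p = 0.0045), and Per3 had r = -0.75 (n = 11, permutation p = 0.011, adjusted p = 0.037; rho = -0.72, permutation p = 0.017). Nr1d1 (r = -0.70, adjusted p = 0.055, permutation) and Per2 (r = -0.66, adjusted p = 0.056, permutation) missed the threshold. Clock and Cry1 had positive r and did not pass. For Clock r was 0.15 (n = 11, permutation p = 0.68, adjusted p = 0.70). Cry1 had r = 0.51 within the 7 rats of its larger set (n = 7, exact permutation p = 0.24, adjusted p = 0.29). Without rats 24 and 22, the 2 farthest from the median of Arntl, r was -0.80 for Tef (n = 9, exact permutation p = 0.0097). For Dbp it was -0.76 (n = 9, exact permutation p = 0.019). For Per1, Per3 and Nr1d2 it was between -0.66 and -0.53 with exact permutation p from 0.053 to 0.14, so those 3 rest on the left-out rats. Without rat 21 as well, Tef had r = -0.71 (n = 8, exact permutation p = 0.041) and Dbp -0.68 (n = 8, exact permutation p = 0.054). Over these 8 rats Per1, Per3 and Nr1d2 had -0.55, -0.37 and -0.56 (exact permutation p = 0.16, 0.37 and 0.15). Within the 9 rats whose 2 arrays were scanned on different days, Tef had r = -0.93 (exact permutation p = 0.0012) and Dbp -0.92 (exact permutation p = 0.0019); the 2 pairs scanned within 1 day are too few for a value. Of all 27 relations 8 passed with r, but 1 with rho, 2 with normexp background correction and 14 with quantile normalization. With normexp the 2 were in normal arrays, and 0 of 9 passed in OSCC and 0 of 9 over pair differences. In OSCC the 1 of 9 became 5 with quantile normalization and 6 with the array median. Over pair differences the 5 of 9 became 7 and 6 with these scalings, and 1 with rho.

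The level of each clock gene in normal tissue was set against its level in the OSCC of the same rat. Of 10 relations 2 passed, both negative, and 0 passed with the array median, normexp background correction or the authors' scaled values: Arntl within the 6 rats above (r = -0.92, exact permutation p = 0.0083, adjusted p = 0.046, n = 6; rho = -0.89, exact permutation p = 0.033) and Nr1d1 (r = -0.74, permutation p = 0.0092, adjusted p = 0.046, n = 11; rho = -0.67, permutation p = 0.027). Without the 2 rats farthest from its median, Nr1d1 had r = -0.52 (n = 9, exact permutation p = 0.15), so it rests on them. Arntl had r = -0.97 over the 4 rats that then remained (exact permutation p = 0.042). Within the rats scanned on different days, Nr1d1 had r = -0.75 (n = 9, exact permutation p = 0.019), and Arntl had r = -0.91 over the 5 such rats of its set (exact permutation p = 0.017). The sign for Arntl depends on which rats are kept: over the 8 rats other than 21, 22 and 24, which include rats of both Arntl sets, r was 0.66 (n = 8, exact permutation p = 0.057). With rho the 1 relation that passed was Per3 (rho = -0.85, n = 11, permutation p = 0.0018, adjusted p = 0.018), whose r of -0.69 missed the threshold (adjusted p = 0.067), and neither Arntl nor Nr1d1 passed (adjusted p = 0.11, permutation).

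The changes of most members moved with the change of the skeletal muscle list, the only cell list set against the members in this way. For each rat the mean OSCC minus normal of the 16 muscle genes was set against that of each member, 10 relations, and 8 passed the adjusted p, but 2 with normexp background correction and 3 without rats 21, 22 and 24. Tef had r = 0.97 (n = 11, permutation p = 1e-05, the smallest that the permutations can give, adjusted p = 0.0001; rho = 0.95, permutation p = 7e-05). Dbp had r = 0.94 (n = 11, permutation p = 0.0001, adjusted p = 0.0005; rho = 0.91, permutation p = 0.00028). Per3, Per2 and Per1 had r = 0.88, 0.85 and 0.83, Nr1d2 0.76 and Nr1d1 0.71 (n = 11, permutation, adjusted p from 0.0021 to 0.018; rho from 0.67 to 0.82, permutation p from 0.0032 to 0.028), and Arntl had r = -0.83 (n = 11, permutation p = 0.0025, adjusted p = 0.0042; rho = -0.70, permutation p = 0.020). Clock did not pass (r = -0.25, permutation p = 0.47, n = 11), nor did Cry1 within the 7 rats of its larger set (r = -0.36, exact permutation p = 0.44, n = 7).

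Many genes followed muscle in these pieces. Among the 13603 probes well above background on all 22 arrays, 0.875% had an r with the muscle list at least as high as that of Tef, 2.21% as that of Dbp, 10.1% as that of Per1 and 17.4% as that of Nr1d1, and 5.40% had an r at least as far below 0 as that of Arntl. Without the 2 rats farthest from the muscle median, r was 0.96 for both Tef and Dbp (n = 9, exact permutation p = 7.7e-05 and 8e-05). Within the 9 rats scanned on different days it was 0.97 for Tef and 0.95 for Dbp (exact permutation p = 9.6e-05 and 0.00073). Muscle genes were higher on average in the OSCC of rats 21, 22 and 24 alone, by 1.35, 0.68 and 0.87, and in these rats Tef differed by -0.07, -0.38 and 0.14, Dbp by -0.48, 0.05 and 0.30, and Arntl by 0.40, -0.15 and -0.31. In the other 8 rats the mean muscle difference ran from -4.24 to -0.98, Tef from -2.76 to -0.64, and Arntl from 0.23 to 2.06. Over those 8 rats, Tef had r = 0.95 with muscle (exact permutation p = 0.00079), Dbp 0.94 (exact permutation p = 0.0011), and Per2 0.86 (exact permutation p = 0.015), the 3 that passed the adjustment. Per3 had 0.73 (exact permutation p = 0.037), Per1 0.71 (exact permutation p = 0.054), Nr1d1 0.63 (exact permutation p = 0.097), Nr1d2 0.50 (exact permutation p = 0.21) and Arntl -0.56 (exact permutation p = 0.14).

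**Figure D4:**
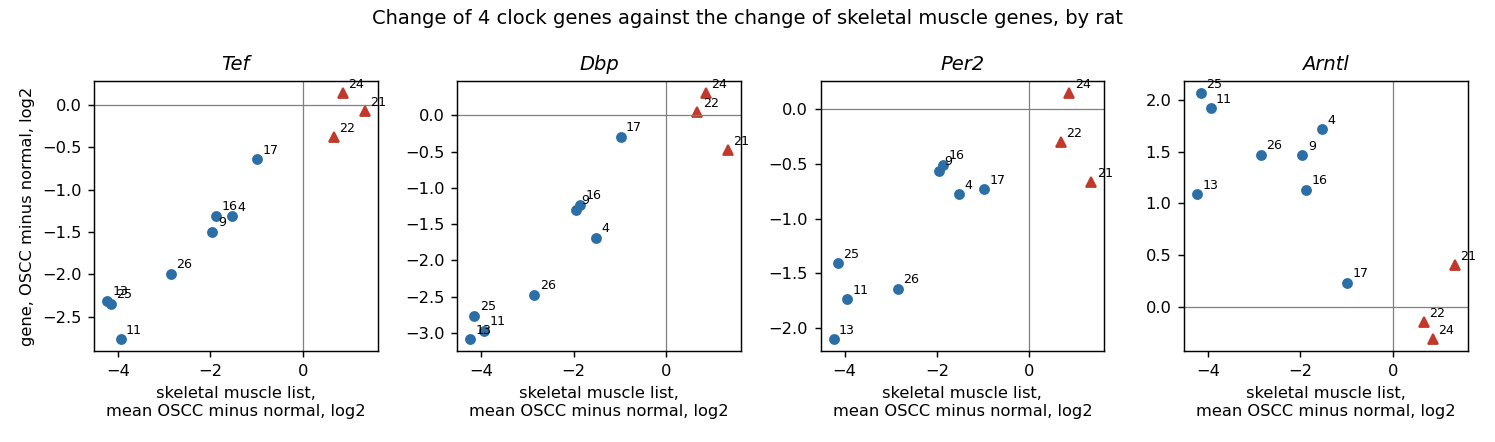
OSCC minus normal (log2) of Tef, Dbp, Per2 and Arntl against the mean OSCC minus normal of 16 skeletal muscle genes, 1 point per rat with its number, and red triangles for rats 21, 22 and 24. Tef, Dbp and Per2 rise and Arntl falls from left to right (r = 0.97, 0.94, 0.85 and -0.83).

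Markers of other cells moved with the same contrast. Of 8 genes each, 6 fibroblast genes, 7 neutrophil and macrophage genes, 7 lymphocyte and plasma cell genes and 8 gland genes were called higher in OSCC, while of 8 measured genes of the stratified epithelium 1 was called higher and 1 lower. The summed fibroblast level ran from 55.8 to 96.6 in normal tissue and from 50.6 to 447 in OSCC, and the summed neutrophil and macrophage level from 1.81 to 7.04 and from 6.32 to 405. The summed lymphocyte and plasma cell level ran from 0.43 to 1.48 and from 0.93 to 9.14, that of the glands from 0.19 to 2.66 and from 2.26 to 5189, and that of the epithelium from 499 to 1017 and from 256 to 1061. Of 7 proliferation genes 0 were called, and their summed level ran from 2.72 to 7.49 and from 1.01 to 15.6. Of 6 endothelial genes 0 were called, and their summed level ran from 9.51 to 14.1 and from 3.97 to 13.4. Some of these lists also separated rats 17, 21, 22 and 24 from the rest. The neutrophil and macrophage list had mean differences of 0.51 to 1.32 in these rats and 3.08 to 4.53 in the others. Proliferation had -2.80 to -0.57 and 0.77 to 1.58, and fibroblasts -0.99 to 0.65 and 1.02 to 2.54. The lymphocyte and plasma cell, gland, epithelial and endothelial lists did not separate them. The part of these cell types, and of muscle, in the clock gene changes was not tested.

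Genes most like Dbp were sought over the 11 normal arrays, among 10883 symbols with a probe well above background on all arrays. These correlations describe arrays that share a batch of scanning and carry no test. Dbp was 3.82 in the normal piece of rat 21 and between 4.51 and 5.15 in the others, so rat 21 weighs heavily in each r. The ranking was not repeated without that rat. Usp2, a deubiquitinase counted among clock outputs, came first with r = 0.93, and Tef was also near the top with 0.88. The 8 other symbols at this end were Map2k6, TC621249, Ccdc85b, Phospho1, Mterfd2, Camk2g, Mtmr9 and Uckl1, with r from 0.86 to 0.89, and 5% of all symbols had an r above 0.60. At the other end stood Ptpro, TC622181, RGD1562551, Fam118b, Fcgr2a, Fmnl1, Htra1, LOC685152, TC594132 and Cd83, with r from -0.93 to -0.88. Arntl is not among the symbols compared, since it was not well above background on all arrays.

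The same genes were then read in OSCC. The 10 that followed Dbp in normal tissue had r from 0.56 for Mtmr9 to 0.94 for Tef over the 11 OSCC arrays. At the other end, Fcgr2a, Fmnl1, Htra1 and Ptpro stayed between -0.84 and -0.77, while Fam118b and RGD1562551 were at 0.02 and 0.03. Correlations with Dbp were wider in OSCC for all genes, with 5% of symbols above 0.87 and 5% below -0.90. Against that range, Cry2 was at 0.96 in OSCC and 0.28 in normal tissue, Per2 at 0.95 and 0.55, Nr1d2 at 0.94 and 0.33, Per3 at 0.92 and 0.23, and Nr1d1 at 0.90 and 0.23. Other clock genes lay inside the range, among them Per1 at 0.85 in OSCC and 0.43 in normal tissue. Cry1 was at 0.57 and 0.21, and Bhlhe40 at -0.07 and 0.29. The mean of Usp2 differed by -0.12 ± 0.44 in OSCC, which did not pass the test (adjusted p = 0.83), and its OSCC levels ran from 1.45 to 6.36, beside 3.33 to 4.13 in normal tissue.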

How the data were processed

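RNA of 22 tongue pieces, OSCC and adjacent normal tissue of 11 rats, was hybridised to 1-color Agilent arrays. The authors extracted the intensity values with Feature Extraction 9.5.3.1, which subtracts the background of each spot, and deposited them unscaled. They also deposited a ratio of each signal to its array's 75th percentile, which 99.6% of the values at or above 0.5 match within 2%. The build of the probe coordinates is not given in the sources used here, and none is printed.

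Control spots and outlier spots (0.975%) were left out, log2 signals of a probe's spots were averaged, and each array's 75th percentile was subtracted. The limma test (limma 3.58.1, R 4.3.3) had terms for animal and tissue, since both pieces come from 1 rat, with Benjamini-Hochberg adjustment over 30367 probes. The code was tested on simulated data. The deviations of the 2 pieces of a rat correlated between -0.21 and 0.24 over probes (median -0.02). Relations used Pearson's r and Spearman's rho with 100000 permutations, or exact permutation below 10 rats (Python 3.11.15, NumPy 2.4.6). Where a gap over 30% of the range left 3 or more rats on each side, only the larger set of at least 6 was used. Array precision is limited by the number of rats.

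The members and gene lists were chosen with earlier results of these data known. Named are all members with their other probes, the called genes of the other clock lists (1 result is not reported here) and those a small count needs, and the 10 symbols at each end of the correlation with Dbp. Alternatives covered scaling, background, filter, block, slide, scan day, test, probe choice and left-out rats.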

Additional observations from a re-analysis of the deposited data

How the results depend on the processing

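The direction of Per1, Per2, Per3, Arntl, Cry1, Nr1d1, Dbp and Tef was the same under all 26 alternatives run for each. Nr1d2 changed sign: -0.0532 with quantile normalization, -0.16 with the array median, -0.0022 without rat 21, -0.03 without rat 22 and -0.14 without rat 24 (from -0.14 to 0.16 leaving out 1 rat), and -0.34 without all 3. Clock changed sign with normexp background (-0.11) and, at -0.0442, with scan day as a term and over only the pairs scanned within 1 day; the filter on dim probes left it out. The median change of all probes ran from -0.44 to -0.03 over the 6 scalings. Relative to it, under the main scaling, Dbp was at -1.21, Tef at -1.08, Nr1d1 at -0.79, Per1 at -0.82 and Arntl at 1.24. Over the 6 scalings these ran from -1.40 to -1.21 for Dbp, -1.25 to -1.08 for Tef and -0.98 to -0.79 for Nr1d1. Per1 ran from -1.17 to -0.49 and Arntl from 0.76 to 1.24.

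The count of members called was 5, and 5 in the paired fit's alternative with no replicate block, with both forms of the methods' t-test and with the authors' scaled values. It was 3 with the 75th percentile over detected probes, 2 with normexp background and 3 over only the pairs scanned on different days. With scan day as a term it was 0, in a fit whose tissue difference comes from 2 pairs. In that limma fit 3 of all 30367 probes were called, and 9578 passed both the 2-fold line and an unadjusted p under 0.05. Leaving out 1 rat gave 2 to 6, lowest without rat 13. Without rats 21, 22 and 24 it was 7, as Per2 and Per3 joined. Dbp and Tef lost the call only with scan day as a term, Arntl under 12 alternatives, Nr1d1 under 7 and Per1 under 5. Over all probes, normexp background called 1706 and the fit without rats 21, 22 and 24 called 6924, against 4201. The array median called 3154 probes lower and 1541 higher, beside 2118 and 2083.

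Of the 27 relations of Arntl, 8 passed. The count was 1 with Spearman's rho, 14 with quantile normalization, 13 with the array median and 2 with normexp background. Of the relations between tissues 2 passed (Arntl and Nr1d1), 1 with Spearman's rho (Per3, neither of the former) and 0 with the array median, normexp background or the authors' values. Of the relations with muscle 8 passed, 2 with normexp background and 3 without rats 21, 22 and 24, a set of rats chosen after seeing the data. The paper also names these animals, as examples of variable expression in both normal tissue and OSCC. The cause of the shifts in these counts was not tested. Dim genes such as Clock and Arntl2 are limited by signal over background.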
